A study of Homo sapiens with 402 samples.

Results

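The 9 genes described here encode proteins that take up, convert, bind or sense retinoids: STRA6, CRABP2, DHRS3, DHRS9, ALDH1A3, RARA, RARB, RARG and RXRA. They were taken by symbol from the count files and are 9 of the 34721 symbols in the series. The list was chosen on a readout of these data. Among the 799 genes called in Copper at 25 µM whose average log2 CPM reached 4 or more, STRA6 ranked 1 and DHRS3 ranked 3 from the lowest log2 fold change. The copper values of all members are therefore given as a description, with no test.

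MCF10A, a non-tumorigenic human breast epithelial line labelled wild type, was sequenced 48 h after dosing. Each of 21 chemicals was given at 4 concentrations, 0.025, 0.25, 2.5 and 25 µM. Of the 402 libraries, 333 were dosed and 69 were controls, and 401 entered the tests. All cells came from the same line, and the labels call the 4 libraries of a dose biological replicates without saying which separate cultures they came from. The metal plate carried 5 metals dissolved in water (Copper, Lead, Arsenic, Mercury and Cadmium) and 15 water controls. The bisphenol plate carried the bisphenols BPS, BPF and BPA and the parabens PPB and MPB, all in DMSO, and 15 DMSO controls. The PFAS plate carried 4 chemicals in DMSO (PFOS, PFDA, PFNA, Phenanthrene), PFOA dissolved in water, 12 controls with DMSO and 4 with water. The thiram plate carried Thiram, PCB187, PCB153, DCP_25 and DCB_14 in DMSO and 15 DMSO controls. DDE, labelled DMSO, was on a plate of 24 libraries whose 8 controls are labelled water, so DDE and solvent cannot be told apart there. Groups had 4 libraries, except 3 for MPB and PPB at 0.025 µM and 2 for Cadmium at 25 µM, where 1 library with another plate's barcode was set aside.

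Retinol circulates bound to a carrier protein and enters many cells through STRA6, a membrane receptor. Dehydrogenases such as DHRS9 oxidise retinol to retinaldehyde, DHRS3 reduces retinaldehyde back to retinol, and ALDH1A3 oxidises retinaldehyde irreversibly to retinoic acid. CRABP2 carries retinoic acid to the nucleus, where the receptors RARA, RARB and RARG pair with RXRA on DNA. STRA6, DHRS3 and RARB are themselves known retinoic acid targets in many cell types, and RARB is often silent in breast cancer cell lines.

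These receptor pairs bind repeats of a hexamer, so the 250 bases before the start that RefSeq lists first were searched on both strands for AGGTCA, for its variants AGTTCA or GGTTCA, and for GGGTCA. All 9 members matched a RefSeq promoter (GRCh38.p14). A hexamer was present for STRA6 (3 matches), CRABP2 (1), RARA (2) and RARB (3), and for none of the other 5 in this window. Of all 27305 promoters, 33.975% held at least 1 of the 4 hexamers and 12.144% held AGGTCA. The 3 stretches printed are those of the member with the lowest copper value, the member called higher in Arsenic and Thiram, and the receptor with a spaced repeat. Capitals mark the hexamers, read 5′ to 3′ on the gene's strand, where TGACCT is AGGTCA on the opposite strand.
STRA6, chr15:74212282-74212481, minus strand: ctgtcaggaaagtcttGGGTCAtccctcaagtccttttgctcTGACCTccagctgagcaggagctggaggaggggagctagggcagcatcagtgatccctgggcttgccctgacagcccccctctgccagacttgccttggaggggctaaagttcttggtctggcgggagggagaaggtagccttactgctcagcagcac
CRABP2, chr1:156705817-156706034, minus strand: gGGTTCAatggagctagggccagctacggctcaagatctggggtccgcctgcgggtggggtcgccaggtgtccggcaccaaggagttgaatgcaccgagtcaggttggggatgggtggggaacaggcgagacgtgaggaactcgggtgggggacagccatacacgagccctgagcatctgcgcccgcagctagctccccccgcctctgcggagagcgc
RARB, chr3:25428013-25428262, plus strand: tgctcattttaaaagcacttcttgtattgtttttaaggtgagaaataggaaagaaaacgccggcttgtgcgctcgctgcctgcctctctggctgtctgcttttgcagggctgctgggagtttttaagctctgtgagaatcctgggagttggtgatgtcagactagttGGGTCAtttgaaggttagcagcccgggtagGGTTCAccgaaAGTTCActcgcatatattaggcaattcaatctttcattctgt
STRA6 had GGGTCA 206 bases before the start and AGGTCA on the opposite strand at 180 and at 22 bases. The match at 22 bases lies outside the printed stretch, which leaves out annotated exons. In RARB, GGTTCA and AGTTCA stood as a direct repeat spaced by 5 bases, 53 bases before the start. Such a repeat spaced by 5 was in 0.07% of promoters, and a direct repeat spaced by 1, 2 or 5 was in 0.201%. A match is a description of letters, and binding was not measured.

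Levels between genes were compared in the controls as CPM per kb of merged exon, where CPM scales a count to the library size after TMM normalization. Each figure is the median over the 6 control groups of the group means. DHRS3 stood highest at 100 CPM per kb (group means 56.1 to 130.9), followed by RARG at 16.9 (13.9 to 31.4). STRA6 at 5.85 (4.46 to 7.45) and ALDH1A3 at 5.35 (3.61 to 15.02) came next, and their ranges overlap. CRABP2 at 3.72, RXRA at 3.55 and RARA at 3.13 had group means between 2.42 and 5.68 and did not separate. DHRS9 at 0.228 and RARB at 0.0246 were near the detection limit. The controls carried RNA of the uptake receptor, of the retinaldehyde reductase DHRS3, of ALDH1A3, of CRABP2 and of the receptors RARG, RXRA and RARA.

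All 9 are protein-coding genes, located here in GENCODE v29 on GRCh38. STRA6 spans 74179466 to 74212267 on the minus strand of chromosome 15, and ALDH1A3 spans 100877714 to 100916626 on the plus strand of the same chromosome. CRABP2 (156699606 to 156705816) and DHRS3 (12567910 to 12617731) are on the minus strand of chromosome 1. DHRS9 is on chromosome 2 (169064789 to 169096167), RARB on chromosome 3 (25174332 to 25597932), RXRA on chromosome 9 (134317098 to 134440585) and RARA on chromosome 17 (40309192 to 40357643), all on the plus strand. RARG is on the minus strand of chromosome 12 (53210567 to 53232980). Antisense exons overlap 27.46% of the exon bases of ALDH1A3, 11.75% of RARA (RARA-AS1) and 7.02% of STRA6 (CCDC33). The strand setting of the counting is not given in the sources used here, so reads of these pairs cannot be told apart.

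Library totals ran from 1.43 to 25.8 M counts on the metal plate and from 3.06 to 8.87 M counts on the DDE plate, with the other plates within 2.31 to 22.5 M counts. All 9 basal mammary markers on a list, including KRT5, KRT14 and TP63, exceeded 1 CPM in the controls of every plate. Of 7 luminal markers 4 did so (KRT8, KRT18, GATA3 and FOXA1), with PGR at 0 on the plates that list it. Of 12 markers of other cell types 3 did so (COL1A1, DCN and PECAM1). The summed luminal markers ran from 827.9 to 1144 CPM in the metal plate controls and from 692.2 to 1018 CPM in the thiram plate controls. On the metal plate the summed basal markers ran from 3663 to 4421 CPM in the controls and from 1539 to 9226 CPM over the dosed libraries. On the thiram plate they ran from 2604 to 3975 CPM and from 2124 to 8281 CPM, and their part in the results was not tested. In bulk libraries, fewer cells of a type and less RNA per cell cannot be told apart. Library numbers mattered on the metal plate. Libraries numbered 1 and 2 of a dose and the lower-numbered controls are called the first-numbered set here, and numbers 3 and 4 with the higher-numbered controls the last-numbered set. The labels name no batch for these sets. On the metal plate the controls had a median of 20.9 M counts in the first-numbered set and 3.17 M counts in the last-numbered set, and their STRA6 means were 49.7 ± 7.41 CPM (SD, n = 8) and 30.8 ± 6.85 CPM (SD, n = 7). On the bisphenol plate the corresponding STRA6 means were 45.1 ± 7.51 and 21.9 ± 5.37 CPM. For this reason values within the sets stand beside many of the pooled ones.

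Calls rest on edgeR's quasi-likelihood test, with Benjamini-Hochberg adjusted values under 0.05 over all genes of a plate. At 25 µM, 14 of 179 tests of a member were called, 11 lower and 3 higher, in 6 of the 21 chemicals. The copper contrast that chose the list gave 2 of these. Over all genes and chemicals at 25 µM, 4.85% of tests were called. At 2.5 µM 3 were called, all lower (all genes: 0.412%), of which copper gave 2, and at 0.25 µM 1 was called (all genes: 0.0748%). At 0.025 µM edgeR called 0 of 179, with 20 at an unadjusted p under 0.05, and DESeq2 called 0 (all genes in edgeR: 0.0104%).

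The group mean of STRA6 ran from 7.52% of the control mean in Copper at 25 µM to 142.54% in BPF at 25 µM over 84 groups, with a median of 85.41%. Below 50% were 10 groups: Copper at 25 and 2.5 µM, Arsenic at 25 and 2.5 µM, Thiram and Cadmium at 25 µM, and all 4 doses of DDE. In 4 of these, both copper doses with Arsenic and Thiram at 25 µM, no dosed library reached the lowest control.

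**Figure D1:**
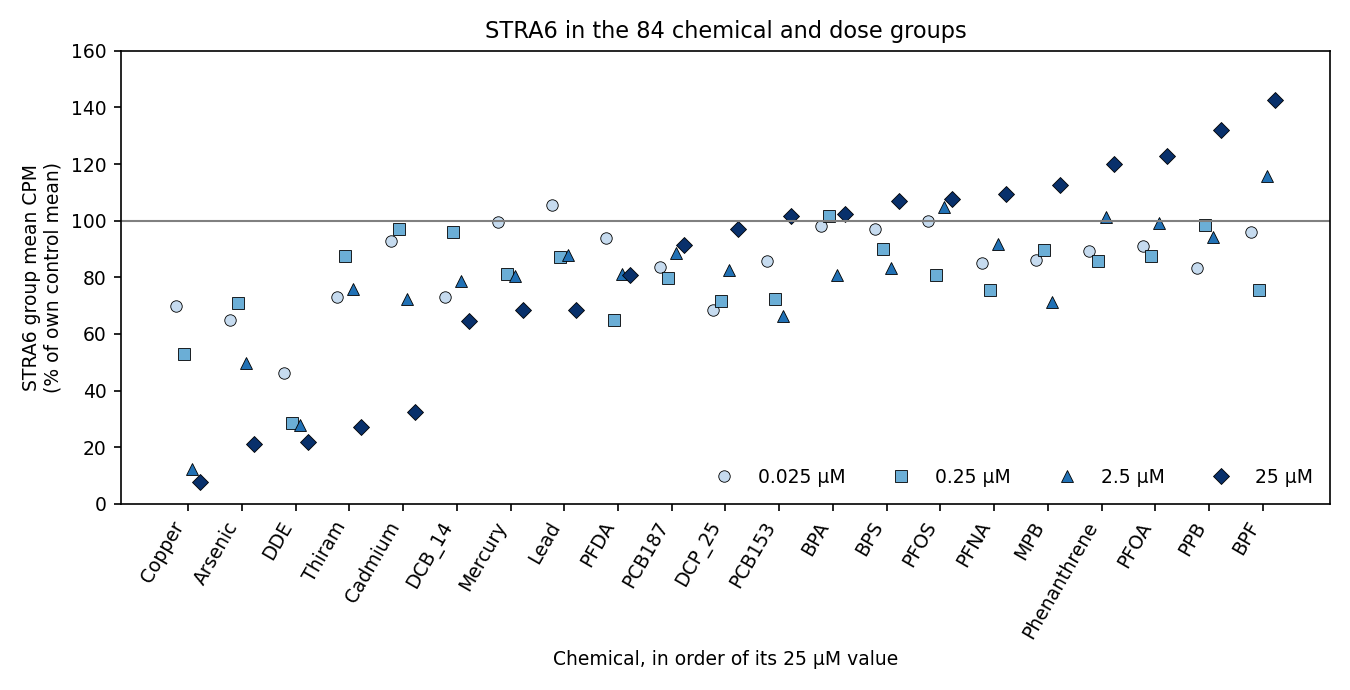
STRA6 in every chemical and dose group, as the group mean CPM in percent of the mean of its own controls (y axis), with the chemicals ordered by their 25 µM value (x axis) and doses as symbols. Copper, Arsenic, DDE, Thiram and Cadmium hold the 10 values below 50%, and the line marks 100%.

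In the 15 water controls of the metal plate, STRA6 lay between 20.8 and 58.3 CPM with a mean of 40.8. Copper libraries 1 to 4 read 31.3, 40.7, 17.5 and 24.9 CPM at 0.025 µM and 32.6, 27.5, 13.4 and 12.7 CPM at 0.25 µM. At 2.5 µM they read 2.06, 2.23, 6.96 and 8.82 CPM, and at 25 µM 2.84, 4.11, 2.87 and 2.47 CPM. The 8 libraries of the upper doses were thus all below the controls, and the largest drop lay between 0.25 and 2.5 µM. At 0.25 µM the group mean was already at 52.76% of the control mean, though its libraries overlapped the controls. The log2 fold change was -3.15 at 2.5 µM and -3.83 ± 0.45 (SE) at 25 µM, or 14.3-fold lower, where 5.09% of all genes were called (3% at 2.5 µM, 1.71% for the copper dose trend). Within the sets it was -4.51 and -2.02 at 2.5 µM, and -3.86 and -3.55 at 25 µM, so the retinol receptor RNA was low in both.

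Lead on the same plate left STRA6 closer to the controls. Lead libraries at 25 µM read 34.8, 35.2, 22.5 and 19.4 CPM, a log2 fold change of -0.64 ± 0.30 that was not called (edgeR adjusted p = 0.277). The first-numbered lead libraries were below every first-numbered control, the lowest of which read 37.0 CPM, and within that set the change was -0.50 (edgeR adjusted p = 0.0278). Mercury at 25 µM ranged from 5.83 to 48.0 CPM and was not called (log2 fold change -0.61, edgeR adjusted p = 1).

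**Figure D2:**
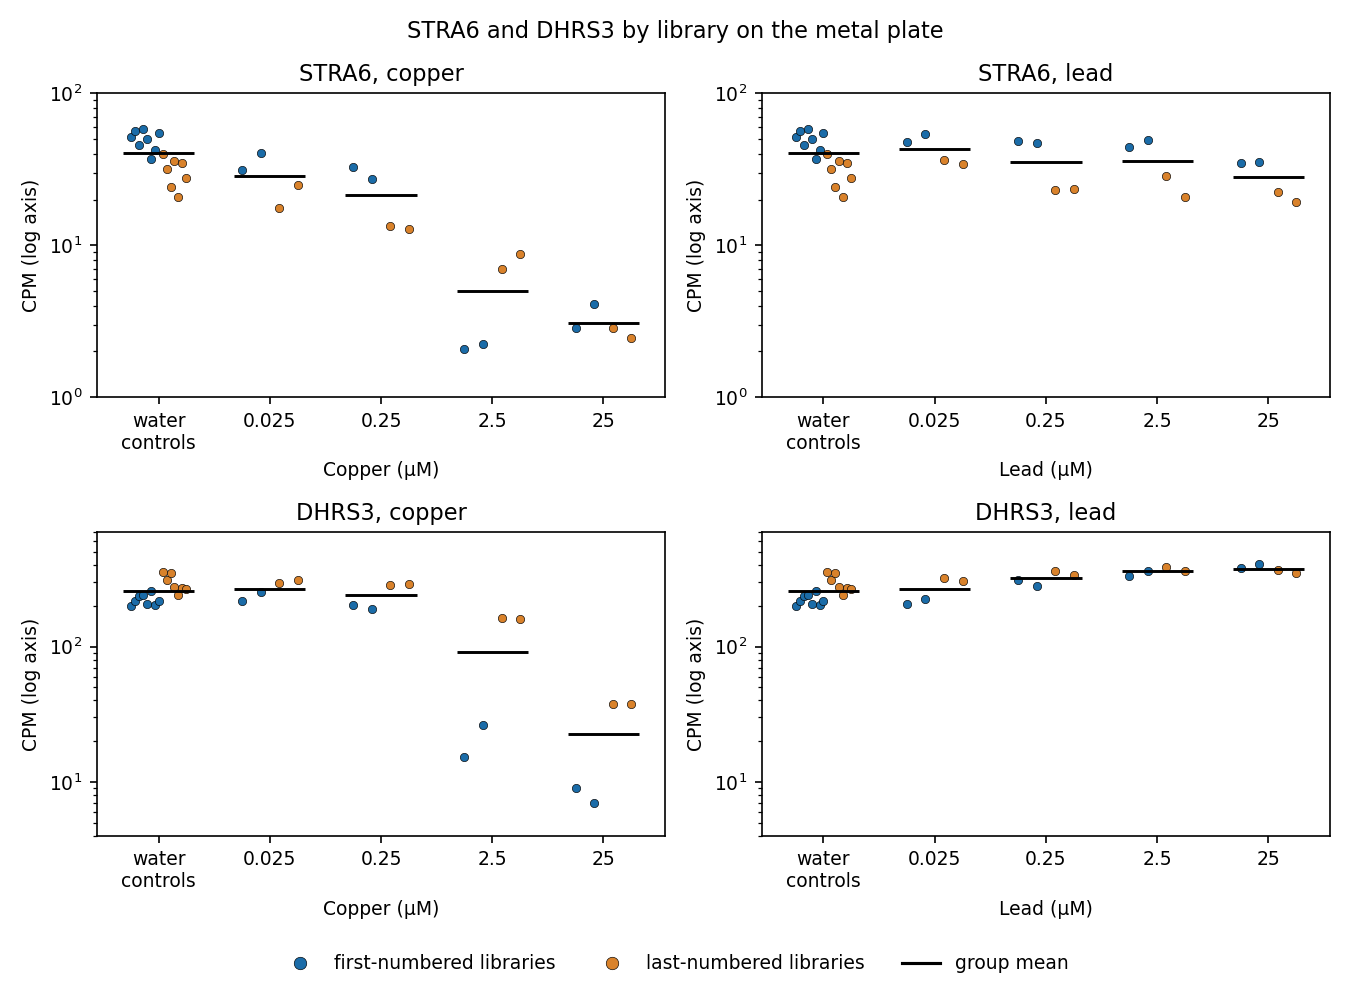
STRA6 (top) and DHRS3 (bottom) in CPM on log axes for each library of the metal plate, by dose of Copper (left) and Lead (right) in µM, beside the same 15 water controls. Colours mark the first- and last-numbered libraries and bars the group means: both genes drop at 2.5 and 25 µM copper, and the last-numbered DHRS3 points stay above the first-numbered ones there.

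Arsenic lowered STRA6 at 25 µM, where 41.4% of all genes were called. The libraries read 3.32, 3.95, 19.6 and 7.82 CPM, all under the lowest control. The log2 fold change was -2.40 ± 0.41 (SE, n = 4 against 15), or 5.27-fold lower (edgeR adjusted p = 6.99e-07). It was -3.73 in the first-numbered and -1.24 in the last-numbered set, both called, lower in each, and the difference between the sets was not tested. At 2.5 µM the libraries read 28.4, 31.9, 12.6 and 8.10 CPM and the change of -1.01 was not called (edgeR adjusted p = 0.0947), although each set on its own passed, at -0.72 and -1.66. Over the 4 arsenic doses STRA6 fell by 0.54 per 10-fold dose on the log2 scale (SE 0.15, edgeR adjusted p = 0.00273, 29.7% of genes called for trend), a trend that did not pass without replicate 1 or within the last-numbered set.

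Thiram, a dithiocarbamate fungicide, lowered STRA6 at 25 µM from controls of 23.7 to 58.8 CPM. Its libraries read 15.98, 10.7, 6.30 and 19.04 CPM and did not overlap the controls. The log2 fold change was -1.9975 ± 0.40, or 3.99-fold lower (edgeR adjusted p = 2.60e-05), with -1.92 and -2.10 within the sets. In that comparison 25.9% of all genes were called. The lower doses were higher, for example 36.8, 42.99, 34.5 and 30.97 CPM at 2.5 µM, and STRA6 fell by 0.47 per 10-fold dose (SE 0.14, edgeR adjusted p = 0.00898, 18.5% of genes called for trend).

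On the DDE plate STRA6 was called lower at 25 µM, with libraries at 25.4, 9.64, 4.83 and 10.5 CPM. The 8 controls spread from 23.8 to 114.1 CPM, and the dosed libraries overlapped them. It differed by a log2 fold change of -2.12 ± 0.53, or 4.33-fold lower (edgeR adjusted p = 0.0287, with 7.77% of all genes called). The lower doses gave -1.75, -1.82 and -1.02 at 2.5, 0.25 and 0.025 µM, none of them called (edgeR adjusted p = 0.0703, 0.0569 and 0.285).

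STRA6 varied with the library number on this plate. The highest library of each dose was number 16 at 0.025 µM (61.2 CPM), 9 at 0.25 µM (32.2 CPM), 8 at 2.5 µM (35.9 CPM) and 1 at 25 µM (25.4 CPM). Among the controls, numbers 9 and 16 were highest, at 114.1 and 87.8 CPM. Without these 2 controls the 25 µM change was -1.73 and not called (edgeR adjusted p = 0.0625). It was also not called without the second or the third of its libraries in number order (-2.0014 and -1.86, edgeR adjusted p = 0.132 and 0.164). Without all libraries numbered 1, 8, 9 and 16, STRA6 was called lower at every dose, by -2.40, -2.21, -1.98 and -1.59 from 25 down to 0.025 µM, where 19.2%, 20.8%, 17.6% and 14.9% of genes were called. Both subsets were chosen after the values were seen. The second leaves out the highest STRA6 library of every dose along with the 2 highest controls, so its calls cannot serve as a test of STRA6. The dose trend was not called.

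**Figure D3:**
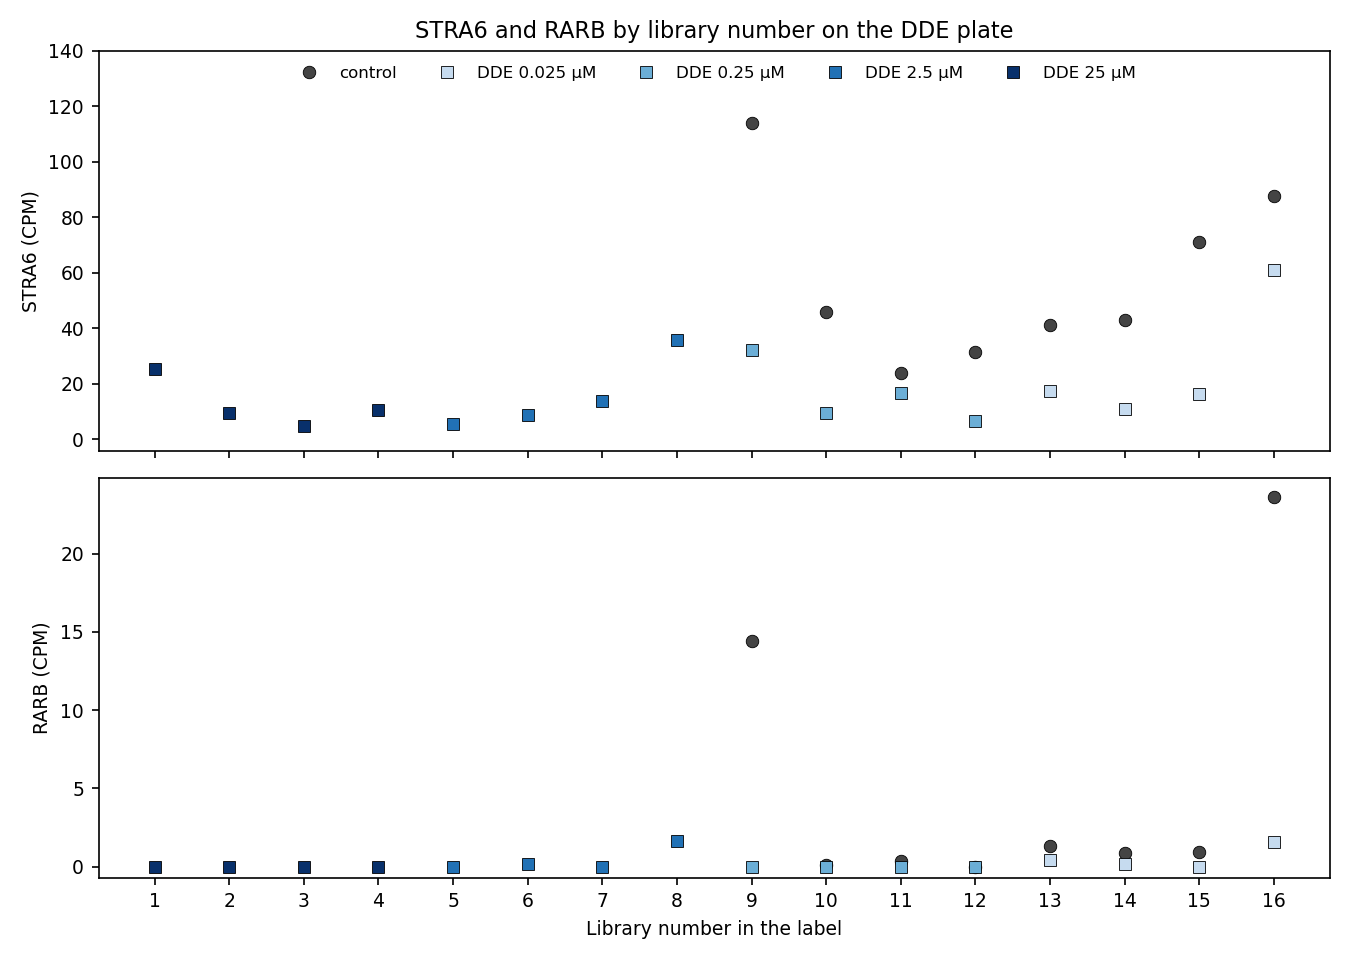
STRA6 (top) and RARB (bottom) in CPM against the library number in the label on the DDE plate, with circles for controls and squares for DDE by dose. STRA6 is highest in numbers 9 and 16 of the controls and in numbers 1, 8, 9 and 16 of the dosed libraries, and RARB exceeds 10 CPM only in controls 9 and 16.

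STRA6 was called in 1 further group, PFDA at 0.25 µM, where 0.642% of genes were called. Its libraries read 13.99, 36.1, 30.1 and 29.4 CPM against DMSO controls of 30.96 to 52.6 CPM (log2 fold change -0.61 ± 0.15, edgeR adjusted p = 0.0283). Without library 1 the change was -0.42 and not called (edgeR adjusted p = 0.704). It was -0.79 within the first-numbered set (edgeR adjusted p = 0.0176) and -0.42 within the last-numbered set (edgeR adjusted p = 0.607), and was not called against the first- or the last-numbered controls alone (edgeR adjusted p = 0.116 and 0.154). Neighbouring PFDA doses were not called (-0.31 at 2.5 µM and -0.33 at 25 µM, edgeR adjusted p = 0.53 and 0.42). In Cadmium at 25 µM the 2 libraries read 26.4 and 0 CPM, and the change was not called.

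The pattern of STRA6 over the 80 dosed groups of the other 4 plates was most like that of a member, DHRS3 (Pearson r = 0.82 of log2 fold changes). Among the 18717 genes fitted on all 4 plates, the non-members most alike were LXN (r = 0.81), LOXL2 (0.81), VSIR (0.80), HCFC1R1 (0.78) and MXD4 (0.77). For the other members fitted on these plates, r was 0.52 for RARG, 0.36 for RXRA, 0.11 for DHRS9 and 0.008 for ALDH1A3. It was -0.19 for RARA and -0.39 for CRABP2. The 95th percentile of r over the fitted genes was 0.46. These coefficients are descriptions, since groups of a plate share controls and the 2 numbered sets, and the copper groups that chose the list weigh in them.

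DHRS3, which returns retinaldehyde to retinol, was also low in copper. Against controls of 199.8 to 355.6 CPM, Copper libraries 1 to 4 read 15.2, 26.5, 161.86 and 160.02 CPM at 2.5 µM and 9.03, 6.999, 37.4 and 37.4 CPM at 25 µM. All 8 were below the lowest control, and libraries 1 and 2 were far below 3 and 4. The log2 fold change was -1.48 at 2.5 µM and -3.53 at 25 µM, or 11.6-fold lower. Within the sets it was -3.36 and -0.90 at 2.5 µM, and -4.77 and -2.9996 at 25 µM. At 0.25 µM the copper libraries read 188.9 to 292.6 CPM, close to the controls.

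Lead went the other way for DHRS3. Lead libraries 1 to 4 read 205.1, 224.1, 320.9 and 307.3 CPM at 0.025 µM and 381.7, 410.7, 366.3 and 350.6 CPM at 25 µM. The first-numbered libraries were above every first-numbered control (up to 259.4 CPM), while the last-numbered ones overlapped theirs. The pooled change of 0.57 ± 0.21 was not called (edgeR adjusted p = 0.123), and 3.85% of genes and 0 of 9 members were called in Lead at 25 µM. With a term for the 2 numbered sets in the fit it was 0.57 and called (edgeR adjusted p = 0.00373), where 6.52% of genes were called. Within the sets it was 0.82 (edgeR adjusted p = 2.18e-12) and 0.25 (edgeR adjusted p = 0.176).

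Thiram at 25 µM lowered DHRS3 to 150.4, 110.9, 87.5 and 130.8 CPM against controls of 289.5 to 384.1 CPM, with no overlap. This was a log2 fold change of -1.49 ± 0.22, or 2.81-fold lower (edgeR adjusted p = 2.17e-08), with -1.38 and -1.70 within the sets. DHRS3 also fell by 0.47 per 10-fold dose of Thiram (SE 0.08, edgeR adjusted p = 7.28e-07). Its group means from 0.025 to 25 µM were 342.7, 340.35, 301.2 and 119.9 CPM, against a control mean of 335.4 CPM. The largest drop thus lay between 2.5 and 25 µM. In Arsenic at 25 µM the libraries read 173.7, 145.8, 203.7 and 175.8 CPM, a change of -0.54 that missed the threshold (edgeR adjusted p = 0.0535) but was called within each set, at -0.44 and -0.58. PFOS, a perfluorinated sulfonate, was the only chemical in which a member other than CRABP2 was called higher at 25 µM. DHRS3 read 495.9, 434.7, 421.7 and 404.3 CPM there against DMSO controls of 233.3 to 334.2 CPM, without overlap. The change was 0.56 ± 0.11, or 1.47-fold (edgeR adjusted p = 0.00387, with 0.0668% of all genes called), and 0.54 and 0.60 within the sets. Without library 1 it was 0.50 and not called (edgeR adjusted p = 0.14). Against the first-numbered controls alone it was 0.44 and not called (edgeR adjusted p = 0.135). Other chemicals of that plate at 25 µM were not called for DHRS3. Against the DMSO control mean of 296.7 CPM, PFOS averaged 439.2, PFNA 381.2, PFDA 361.8 and Phenanthrene 304.7 CPM. PFOA averaged 379.0 CPM against 397.4 CPM in the water controls.

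CRABP2, the carrier of retinoic acid to the nucleus, was called higher in Arsenic and in Thiram. In Arsenic at 25 µM its libraries read 63.9, 58.9, 50.99 and 40.8 CPM against controls of 0 to 16.7 CPM. The groups did not overlap, and the log2 fold change was 3.79 ± 0.23, or 13.9-fold higher (edgeR adjusted p = 3.56e-27). It was 4.29 and 2.78 within the sets. At 2.5 µM and below the arsenic libraries read 1.4003 to 5.64 CPM, so the rise was confined to the top dose tested. In Thiram at 25 µM CRABP2 read 7.99, 13.5, 13.2 and 24.4 CPM against controls of 0 to 15.9 CPM, of which 2 exceeded 10 CPM. The change was 2.38 ± 0.53, or 5.22-fold higher (edgeR adjusted p = 1.67e-04), with 2.25 and 2.01 within the sets, and was not called against the last-numbered controls alone (1.63, edgeR adjusted p = 0.0602). The Thiram libraries at 25 µM had 2.46 to 6.29 M counts, against a control median of 15.1 M. CRABP2 averaged 2.31 ± 1.88 CPM (SD, n = 8) in the first-numbered controls (median 17.9 M counts). In the last-numbered controls (median 3.18 M counts) it averaged 4.67 ± 6.77 CPM (SD, n = 7). The part of depth in this change was not tested. In copper CRABP2 stayed between 2.05 and 7.98 CPM at every dose.

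**Figure D4:**
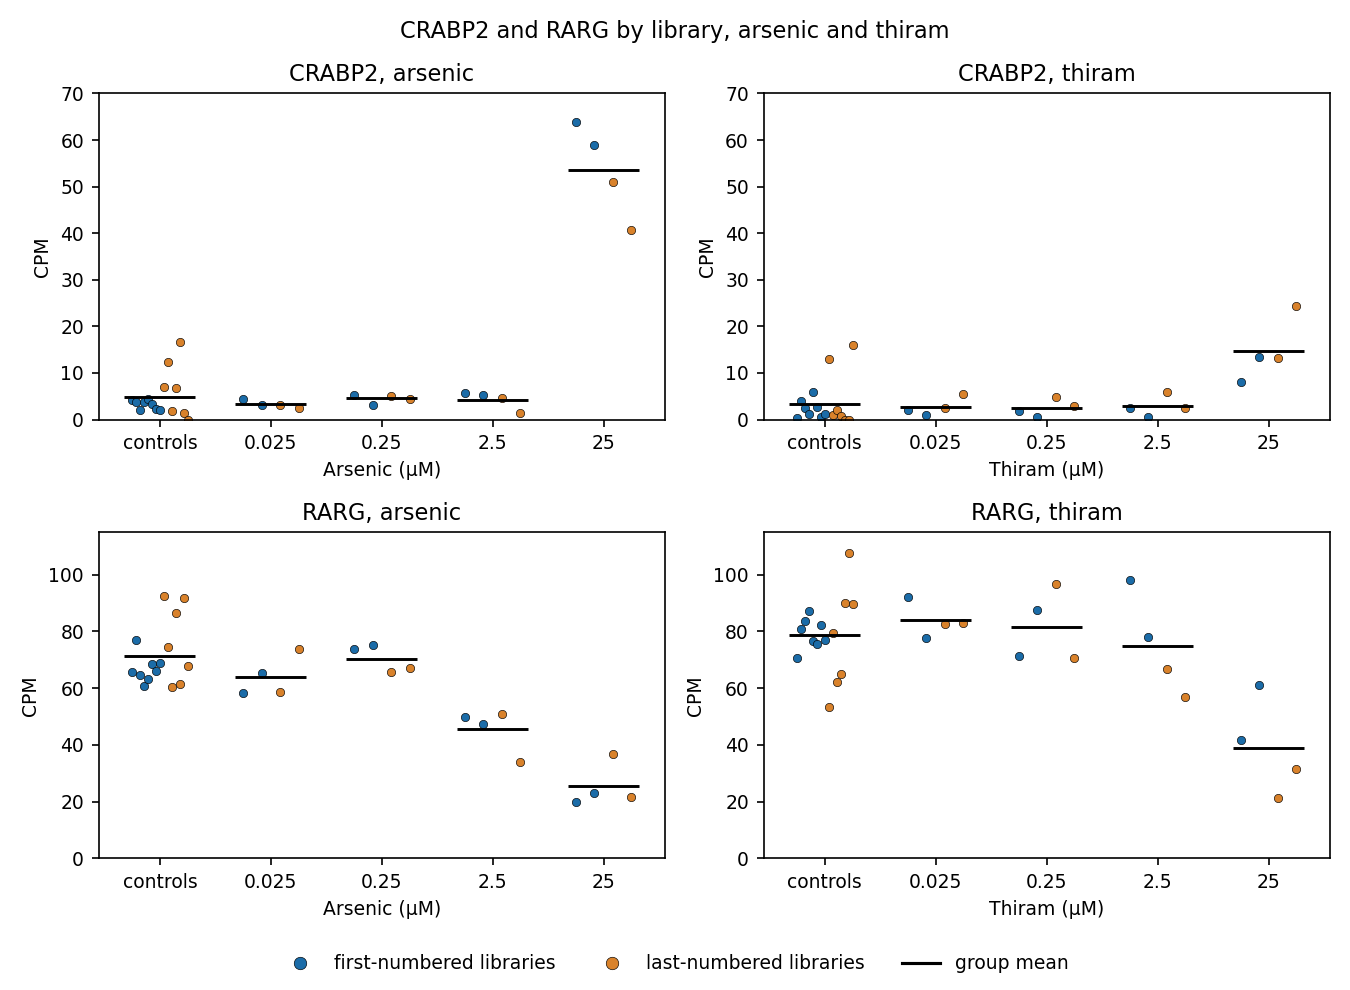
CRABP2 (top) and RARG (bottom) in CPM for each library by dose of Arsenic (left, µM) and Thiram (right, µM) beside the controls of the same plate, with bars for group means. CRABP2 stands above 40 CPM in all 4 libraries of 25 µM Arsenic, where RARG is below 40 CPM.

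RARG, the retinoic acid receptor with the most RNA here, fell in Arsenic. Against controls of 60.3 to 92.4 CPM its libraries read 49.8, 47.4, 50.8 and 33.9 CPM at 2.5 µM and 19.7, 22.98, 36.9 and 21.7 CPM at 25 µM, with no overlap at either dose. The log2 fold change was -0.63 ± 0.14 at 2.5 µM (edgeR adjusted p = 0.00415, with 1.96% of genes called) and -1.49 ± 0.16 at 25 µM (edgeR adjusted p = 1.25e-13), or 2.82-fold lower. Within the sets it was -0.46 and -0.90 at 2.5 µM, and -1.61 and -1.38 at 25 µM. RARG was the 1 member called in Arsenic at 2.5 µM, and without library 4 that change was -0.51 and not called (edgeR adjusted p = 0.152). In Thiram at 25 µM RARG read 41.8, 61.1, 21.3 and 31.5 CPM against 53.3 to 107.7 CPM in the controls. The change was -0.96 ± 0.17, or 1.94-fold lower (edgeR adjusted p = 1.67e-06), with -0.65 and -1.64 within the sets.

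RXRA, the shared partner of these receptors, had smaller values than RARG in Arsenic and Thiram, a difference that was not tested. Its arsenic libraries at 25 µM read 30.9, 19.4, 35.4 and 31.2 CPM against 28.9 to 63.95 CPM. The change was -0.61 ± 0.16 (edgeR adjusted p = 0.00101), with -0.84 within the first-numbered set and -0.14 within the last-numbered set (edgeR adjusted p = 0.67). Against the last-numbered controls alone it was -0.31 and not called (edgeR adjusted p = 0.267). Thiram gave -0.33 ± 0.22, which was not called. RARA was not called in any of 84 groups. Its Arsenic libraries at 25 µM read 8.98 to 25.5 CPM against controls of 1.76 to 21.1 CPM, with 1 library above every control. Its Thiram libraries at 25 µM read 8.64 to 21.96 CPM, within controls of 7.58 to 32.01 CPM.

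Cadmium at 25 µM rested on 2 libraries of 1.43 and 1.45 M counts, with 39.3% and 46.8% mitochondrial counts against 7.87% to 11.4% in the controls. RARG read 12.6 and 7.002 CPM (log2 fold change -2.82 ± 0.61, edgeR adjusted p = 3.66e-04) and RXRA 0 and 12.6 CPM (-2.90 ± 0.78, edgeR adjusted p = 0.00537), where 11% of genes were called. The median of all genes was itself at -1.42 in this comparison, and at 0.07 with DESeq2 size factors. With the set-aside library included, the changes were -0.16 and -0.97 and neither was called (edgeR adjusted p = 0.968 and 0.0938). RARG was not called without library 2 (-2.49, edgeR adjusted p = 0.0635), nor RXRA without library 1 (-1.81, edgeR adjusted p = 0.363). The part of the mitochondrial share and of depth in these values was not tested. The cadmium trends of both genes were called (8.96% of genes called for trend) and rest on the same 2 libraries.

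ALDH1A3, which makes retinoic acid, was not called at any single dose of any chemical. Arsenic libraries 1 to 4 read 25.9, 25.7, 52.7 and 42.1 CPM at 0.025 µM and 11.5, 17.7, 15.5 and 12.1 CPM at 25 µM. Over the arsenic doses it fell by 0.46 per 10-fold dose (SE 0.14, edgeR adjusted p = 0.00478), a trend not called without library 3 or 4, nor within the first-numbered set (edgeR adjusted p = 0.0575), but called within the last-numbered set. The controls differed by number, at 17.3 ± 3.17 CPM (n = 8) in the first-numbered and 47.1 ± 14.1 CPM (n = 7) in the last-numbered set, and the 25 µM change was -0.22 within the first-numbered and -1.68 within the last-numbered set. With a term for the sets in the fit, the pooled 25 µM change of -0.9974 was called (edgeR adjusted p = 1.57e-04).

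DHRS9 and RARB were near the limit of what these libraries could show. DHRS9 was at 0 counts in 13 of 93 libraries of the metal plate and in 54 of 95 of the thiram plate, and never exceeded 91 counts. RARB was at 0 in 73, 83, 74 and 82 of the libraries of the metal, bisphenol, PFAS and thiram plates, with at most 26 counts in a library. A count of 0 allows up to 3 counts, which is 0.217 CPM in a library of median total on the metal plate. On the DDE plate DHRS9 was at 0 in all 8 controls and read 0.749, 3.02, 0.597 and 0.447 CPM at 0.25 µM DDE. It read 0.423 to 2.97 CPM at 2.5 µM, while the lowest library was at 0 at 0.025 and 25 µM. On that plate 3 counts are 0.4675 CPM in a library of median total. Neither gene was called in any group, and at this depth a missing call does not show that groups were alike. RARB failed the low-count filter on the PFAS and thiram plates, so 8 members were tested there and 9 on the other plates.

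The DDE plate was the exception for RARB. Controls 9 and 16 read 14.5 CPM (67 counts) and 23.7 CPM (80 counts), while the other 6 controls read 0 to 1.32 CPM. In the dosed libraries RARB reached 1.55 CPM in number 16 at 0.025 µM and 1.67 CPM in number 8 at 2.5 µM, and was at 0 in all 4 libraries at 25 µM. Controls 9 and 16 were thus the highest controls for both RARB and STRA6, and the 2 dosed libraries were the highest for STRA6 within their own doses. Number 8 at 2.5 µM read 35.9 CPM of STRA6, below the control mean of 57.3 CPM. Control 9 was also lowest for RXRA, at 14.9 CPM against 48.2 to 87.7 CPM in the other 7, and controls 9 and 16 were lowest for DHRS3, at 110.9 and 116.5 CPM against 160.2 to 208.0 CPM.

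Set against the plate, 4 of 9 members were called in Arsenic (1 higher, 3 lower), 4 of 8 in Thiram (1 higher, 3 lower), 2 of 9 in Cadmium and in Copper, and 1 in DDE and in PFOS. The share of all genes called was 11% in Cadmium, 5.09% in Copper, 7.77% in DDE and 0.0668% in PFOS. In the other 15 chemicals 0 members were called at 25 µM. The median member log2 fold change was -0.61 in Arsenic, with 0.00 over all genes, and -0.65 in Thiram, with -0.11 over all genes. With DESeq2 size factors the all-gene medians were 0.15 and -0.01. STRA6 and RARG fell and CRABP2 rose in both chemicals. Both comparisons called a large share of all genes, at 41.4% and 25.9%, and the 4 of 9 members in Arsenic are near that background. Over dose, 13 of 179 member trends were called, with 3.12% over all genes and chemicals. The copper trends of STRA6 and DHRS3, which include the values that chose the list, are 2 of them, and without copper 11 of 170 were called, 2 higher and 9 lower, in 3 chemicals.

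**Figure D5:**
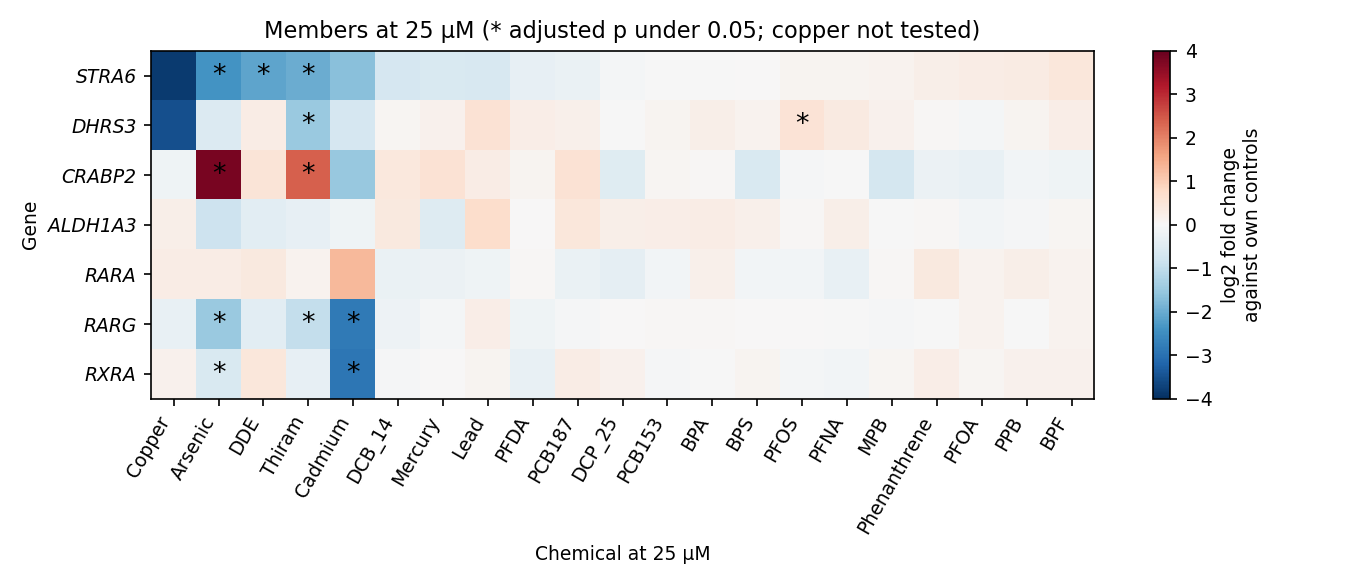
Log2 fold change against own controls (colour, from -4 to 4) of 7 members (rows) in the 21 chemicals at 25 µM (columns, in order of STRA6), with stars for adjusted p under 0.05 and no test shown for copper. The starred cells outside copper lie in Arsenic, DDE, Thiram, Cadmium and PFOS, and CRABP2 is the row with the 2 starred red cells.

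The solvents were compared on the PFAS plate, which held both. DHRS3 read 416.2, 413.2, 380.9 and 379.1 CPM in the 4 water controls, above all 12 DMSO controls (233.3 to 334.2 CPM). The change was 0.42 ± 0.11 (edgeR adjusted p = 0.0116), and 4.08% of all genes were called. ALDH1A3 read 36.3, 35.996, 24.3 and 35.3 CPM in water against 11.96 to 30.1 CPM in DMSO (0.73 ± 0.15, edgeR adjusted p = 4.96e-04). In the last-numbered set alone it was 0.30 and not called (edgeR adjusted p = 0.784). STRA6 did not pass (0.20 ± 0.14, 95% interval -0.08 to 0.48, edgeR adjusted p = 0.522), nor did RARA, RARG and RXRA. The DHRS3 call was lost without water control 39 or 40 (edgeR adjusted p = 0.0715 and 0.0542).

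Beyond the members, 56 further retinoid genes were listed as carriers and enzymes, receptors and coregulators, or retinoic acid targets. Of these, 51 were in the files and 43 were tested, in 804 tests at 25 µM. Of the tests, 53 were called, 18 higher and 35 lower (all genes: 4.85%). These counts include the copper contrast that chose the list, which gave 1 carrier or enzyme higher and 2 lower. In Copper 1 receptor or coregulator and 4 targets were also called lower (all genes: 5.09%). Arsenic, where 41.4% of all genes were called, gave 22 of the calls. Of 24 carriers or enzymes tested there, 1 was higher and 8 lower, and of 8 receptors or coregulators 5 were higher and 1 lower. Of 11 targets, 2 were higher and 5 lower. In Thiram 25.9% of all genes were called. The same lists gave 0 higher and 2 lower of 19, 2 higher and 0 lower of 8, and 1 higher and 4 lower of 10 there. The medians of the targets were -0.75 in Arsenic and -0.40 in Thiram. The lists were chosen with results of these data known.

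Among the retinoic acid targets, HOXA5, HOXA4 and RARRES1 fell. HOXA5, a homeobox gene of positional identity, read 39.2 ± 9.73 CPM in the water controls (SD, n = 15) and 5.21 ± 3.44 CPM in Arsenic at 25 µM (SD, n = 4; log2 fold change -3.07, edgeR adjusted p = 3.13e-17). In Thiram it read 14.2 ± 9.41 CPM against 51.4 ± 11.2 CPM (-1.82, edgeR adjusted p = 5.25e-09). Its neighbour HOXA4 fell in both as well (-1.70 and -2.0006, edgeR adjusted p = 0.00344 and 0.0327). RARRES1, a retinoic acid induced membrane protein, fell in Arsenic from 7.28 ± 5.29 to 1.33 ± 1.04 CPM (-2.99, edgeR adjusted p = 0.00292). In Copper at 25 µM, the contrast of the choice, HOXA5 read 16.1, HOXA4 1.999 and RARRES1 0.859 CPM on average.

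Among carriers and enzymes, FABP5, a fatty acid carrier that also delivers retinoic acid, fell in Arsenic from 65.8 ± 13.1 to 22.2 ± 10.6 CPM (-1.65, edgeR adjusted p = 4.82e-15). DGAT1, which can esterify retinol, fell from 51.8 ± 11.8 to 19.4 ± 2.83 CPM (-1.49, edgeR adjusted p = 3.81e-15). The retinaldehyde reductases RDH13 (-2.33), RDH14 (-1.31) and DHRS4 (-1.02) and the retinol dehydrogenase SDR16C5 (-1.81) fell in Arsenic too, with edgeR adjusted p of at most 0.00591. Among receptors and coregulators, PPARD, a nuclear receptor that pairs with RXRA, rose in Arsenic (1.01, edgeR adjusted p = 5.10e-07), the coactivator NCOA1 rose in Thiram (1.36, edgeR adjusted p = 0.0115), and NRIP1, a corepressor of nuclear receptors, fell in Arsenic (-1.09, edgeR adjusted p = 1.15e-08). In Cadmium, RDH14 (-3.0027), BHLHE40 (-1.73) and RDH11 (-1.01) were called lower and PPARD (1.58) higher, on the same 2 libraries and against the all-gene median of -1.42.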

How the data were processed

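MCF10A lysates were sequenced by plexWell RNA-seq, per the labels' protocols. The deposited files hold raw counts per gene symbol and library, made by the authors. The submitters' processing notes name FastQC, MultiQC, STAR, featureCounts and GRCh38. Annotation and strand setting: not given in the sources used here. The members and gene lists were chosen with earlier results of these data known.

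Libraries were grouped by chemical, dose and plate barcode, and 1 cadmium library with another plate's barcode was set aside. Each plate was fitted separately with edgeR 4.0.16 (limma 3.58.1, R 4.3.3): TMM scaling, filterByExpr (minimum count 10, total 15), quasi-likelihood tests of each dose against the plate's own controls, and a trend over log dose weighted -3, -1, 1 and 3. P-values were adjusted by Benjamini-Hochberg over all genes of a contrast and called under 0.05. DESeq2 1.42.0 was an alternative. The fits were run on counts simulated from BPA and the controls of the bisphenol plate, with the same spread for all genes. That simulation held no genes of low mean count and no shift between the numbered sets, so it does not cover those cases. With the labels naming no separate cultures, p-values measure the spread between these libraries, which may be technical. Other retinoid genes were named at an absolute log2 fold change of at least 1 and an average log2 CPM of at least 2 among called genes at 25 µM, up to 20. A gene that met this rule is not reported here. Depth limits low genes: 0 counts allow up to 3.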

Additional observations from a re-analysis of the deposited data

Results flagged for a closer look

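Of 19 sets of libraries checked for a single library far from the rest, 1 was picked out. ALDH1A3 in the 4 water controls of the PFAS plate had a lowest library at 24.3 CPM against 35.3, 35.996 and 36.3 CPM in the others, and the gap took up 0.9178 of the whole range. Chance picks out about 1 in 20 such sets. Its part in the water and DMSO comparison of ALDH1A3 was not tested beyond leaving out each water control, under which that call was kept.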

How the results depend on the processing

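Of the 33 member contrasts called, copper included, 16 kept their call under all of their alternatives and 17 lost it under at least 1, and 384 of the 430 alternative values were called. Without the copper contrasts, which rest on the values that chose the list, 10 of 27 kept their call and 304 of 350 values were called. The 1 reversal was the RARG trend over cadmium, whose contrast was 0.20 with the set-aside library included, and the cause was not tested. At 25 µM the member calls moved from 14 to 22 with a term for the numbered sets, and ran from 12 to 14 leaving out a replicate. At 2.5 µM the 3 calls became 5 with that term, 6 against the first-numbered controls, 5 with no filter on low counts, 7 without DDE plate libraries 1, 8, 9 and 16, and 3 to 6 leaving out a replicate. At 0.25 µM the 1 call became 4 with DESeq2, 2 with the term, 2 against the first-numbered and 0 against the last-numbered controls, 3 with no filter, 6 without those DDE plate libraries, and 1 to 2 leaving out a replicate. At 0.025 µM the 0 calls became 1 with no filter, 2 without those libraries, and 0 to 2 leaving out a replicate. The 2 solvent calls became 1 against the first-numbered and 0 against the last-numbered controls, and ran from 1 to 3 leaving out a water control. The causes were not tested. The alternatives without DDE plate libraries or without a water control were chosen after seeing the data. With the replicate number as a block, the 13 trend calls became 23. The numbers were not taken to pair libraries, since no chemical had every same-number correlation over 0.1. As a hint from the data, the median correlation was higher for the same number than for other numbers in 19 of 20 chemicals, 159 of 316 libraries correlated best with their own number, and in 0 of 20 chemicals did every library. The term and the control sets were not run on the DDE plate, and the last-numbered set could not be fitted for Cadmium at 25 µM. Depth limits RARB and DHRS9 most.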
